A study of Rattus norvegicus with 9 samples.

Results

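The genes described here encode the constitutive proteasome, the standard form of the protease found in every cell, as measured in rat kidney. Members were chosen by name: every gene measured by a probe set with 1 gene symbol, where that symbol begins with Psma, Psmb, Psmc, Psmd or Psme and a digit, other than the immunoproteasome subunits Psmb8, Psmb9 and Psmb10. This gave 35 of the 10411 genes with such a probe set. Of the 35, 33 encode subunits, activators or chaperones of the proteasome, and the remaining 2, Psmc3ip and Psme3ip1, encode proteins that share the start of the name without being subunits. The 33 were 7 outer-ring (alpha) and 6 inner-ring (beta) genes of the core, 8 genes of the base, 6 of the lid, 3 activator genes and 3 chaperones of base assembly. Psmb6 and Psme3 were met by the platform annotation only in probe sets that carry several symbols, and Psma8, Psmb11, Psmc6, Psmd12 and Psmd14 had no probe set of their own symbol, so these 7 were not analysed here.

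The series is about gene expression in hypotension and holds 1 array of total kidney RNA from each of 9 rats, 4 labelled case and 5 labelled control. The case rats are animals 3, 5, 7 and 8, and the control rats are animals 4, 9, 10, 11 and 12. The labels give no strain, sex, age, agent or blood pressure for either group, and no treatment is assumed for the rats labelled case. The array, Affymetrix RAE230A, reports 1 signal per probe set, a group of short probes against 1 transcript, and the deposited signals are on a linear scale with a median of 50.3. Signals of different probe sets were not ranked against each other, because probes differ in how strongly they bind. The precision of every difference is limited by the number of arrays.

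The proteasome degrades proteins that carry ubiquitin chains. Its barrel-shaped 20S core has outer alpha rings, which form the gate, and inner beta rings, in which Psmb5, Psmb6 and Psmb7 supply the protease sites. A 19S cap sits on the core: its base holds the ATPases encoded by the Psmc genes, which unfold the substrate, and its lid removes the ubiquitin chain. Other activators can take the place of the cap, namely PA28, built from Psme1 and Psme2 or from Psme3, and PA200, encoded by Psme4. In cells exposed to interferon the catalytic beta subunits are exchanged for Psmb8, Psmb9 and Psmb10, which gives the immunoproteasome. Tubule cells of the healthy kidney hold mainly the constitutive form.

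The tissue markers fitted kidney. All 9 proximal tubule markers were above the filter on low signals in the 9 animals, and their summed signal lay between 15690 and 22710 in case animals and between 16890 and 23060 in control animals. Of these 9, 4 lay above 0 and 5 below in the case minus control difference (median -0.01, log2 scale), and 0 of 9 had an unadjusted p under 0.05. The file headers give the same day for all arrays. Runs were inferred from the times in the headers, with a gap of more than 10 minutes starting a new run. This gave 3 groups, called fluidics runs here. Run 1 held 3 case animals (3, 5 and 7) and 1 control animal (4). Run 2 held 1 case animal (8) and 3 control animals (9, 10 and 11), and run 3 held 1 control animal (12). Group and run therefore overlap only in part. The log2 ratio of 3' to 5' actin probes, which is higher where RNA is shorter, was 0.65, 0.61, 1.61 and 1.64 in case animals 3, 5, 7 and 8, against 0.73, 0.998, 0.16, 0.79 and 0.95 in control animals 4, 9, 10, 11 and 12. Case animals 7 and 8 lay above every other animal on this ratio.

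Signals of the constitutive proteasome genes overlapped between case and control kidneys, with small differences of either sign. Of the 33 genes, 20 had a higher mean in case animals and 13 a lower one, and the median difference was 0.05 on the log2 scale, against -0.02 over the 9519 probe sets tested and -0.01 over the 7147 genes they represent. The differences ran between -0.25 for Psmd8, a lid subunit, and 0.28 for Psmd1, a scaffold of the base. All 33 passed the filter on low signals, and their single signals lay between 72.1 and 931.2. Differences are case minus control of log2(signal + 5.03), where the small constant keeps dim probe sets from dominating and slightly understates their change.

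No member passed the test. With limma and Benjamini-Hochberg adjustment over all probe sets, 0 of 33 had an adjusted p under 0.05, the lowest being 0.755 for Psmd8. The background was the same, since 0 of 9519 probe sets, or 0.0%, passed and the smallest adjusted p of any was 0.136. At an unadjusted p under 0.05 the count was again 0 of 33, beside 637 of 9519 probe sets, which is 6.69%; of these 274 were higher in case animals (2.88%) and 363 lower (3.81%). In 0 of 33 were the signals of the 4 case animals wholly apart from those of the 5 control animals, against 179 of all probe sets (1.88%). The share of members above 0, 20 of 33, stood beside 46.0% of all probe sets.

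The size of change that the intervals allow depended on the fit. Without a term for run, the 95% interval of the difference lay within 1.5-fold in either direction for 31 of 33 members, or 93.9%, against 6208 of 9519 probe sets, or 65.2%. The exceptions were Psma3, an alpha subunit, whose interval reached 0.61, and Psmd1, whose interval reached 0.59 where 1.5-fold is 0.58 (all log2). The lowest bound was -0.51, for Psmd8. With run as a block, 18 of 33 intervals lay within 1.5-fold, against 37.3% of all probe sets, and the bounds reached 0.82 for Psme4 and -0.68 for Psmd4. The count was 30 of 33 with the actin ratio as a covariate and 27 of 33 without case animal 5. The SD between animals of a group had a median of 0.20 over the 33 on the log2 scale, against 0.25 over all probe sets tested. The members were brighter than most of that background, since 31 of 33 had a mean signal above its median of 102.7. Over the 4759 probe sets above that signal, a comparison added after the values were seen, the median SD was 0.22 and 3664 intervals lay within 1.5-fold without a term for run. Psma5 varied least (0.12) and Psma3 most (0.45).

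**Figure D1:**
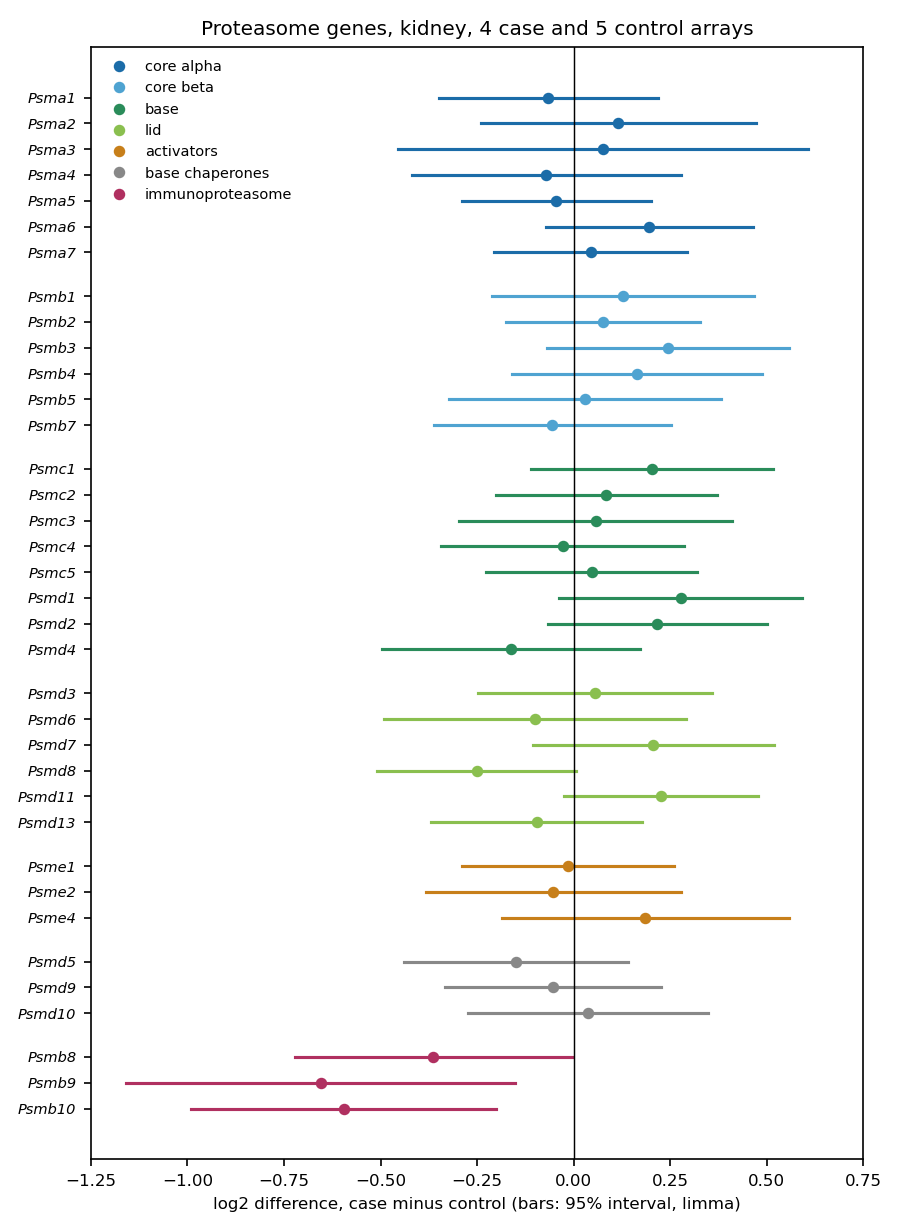
Log2 difference in signal, case minus control, for the 33 constitutive genes by class and the 3 immunoproteasome genes, with points for the estimate and bars for the 95% interval (limma, 4 case and 5 control arrays). The fit has no term for run. All 33 constitutive intervals span 0, and the intervals of Psmb8, Psmb9 and Psmb10 lie below it.

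The alpha genes encode the outer rings, whose tails close the gate of the core. Of the 7 measured, 4 had a higher mean in case animals and 3 a lower one, with a median difference of 0.04 and a range between -0.07 and 0.20. Psma6 gave signals of 772, 606, 778 and 769 in case animals 3, 5, 7 and 8, against 530.5, 662, 610.0, 684 and 699 in control animals 4, 9, 10, 11 and 12 (the animals keep this order below). Of the case animals, 3 lay above every control and animal 5 lay below all but control animal 4. The means were 731 ± 83.5 in case (SD, n = 4) and 637 ± 68.5 in control (n = 5), a difference of 0.20 ± 0.12 (SE; limma adjusted p = 0.821). Psma2 had signals of 315, 271, 398 and 366 in case animals, against 246, 391, 251, 346 and 331 in control animals. The groups overlapped across most of their range, and the difference was 0.12 ± 0.16 (SE; limma adjusted p = 0.935). The other 5, Psma1, Psma3, Psma4, Psma5 and Psma7, differed by between -0.07 and 0.08. Psma3 had the widest spread of the 33, with signals between 74.8 and 185 in case animals and between 82.9 and 151 in control animals.

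The beta genes form the inner rings that hold the protease sites. Of the 6 measured, 5 had a higher mean in case animals and 1 a lower one, with a median difference of 0.10. Psmb5, the subunit with chymotrypsin-like activity and the target of proteasome inhibitor drugs, gave 721, 688, 591 and 688 in case animals, against 825, 515, 839.5, 660 and 518 in control animals. Its case animals sat inside the range of the controls, with means of 672 ± 56.4 in case (SD, n = 4) and 672 ± 158 in control (n = 5), and the difference was 0.03 ± 0.16 (SE; limma adjusted p = 0.989). Psmb7, the trypsin-like subunit, gave 425, 430.0, 543 and 537 in case animals, against 386, 581, 489.6, 564 and 502 in control animals. That difference was -0.06 ± 0.14 (SE), and the groups overlapped.

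Among the beta genes without a protease site, Psmb3 differed most. Its signals were 526, 383, 416 and 582 in case animals, against 376, 340.3, 452, 380 and 443 in control animals. Case animals 3 and 8 lay above every control, and animals 5 and 7 lay among them. The means were 477 ± 92.9 in case (SD, n = 4) and 398 ± 47.5 in control (n = 5), a difference of 0.24 ± 0.15 (SE; limma adjusted p = 0.804). Psmb4 gave 783, 679, 586 and 931 in case animals, against 586, 675, 649.6, 574 and 811 in control animals, a difference of 0.17 ± 0.15 (SE; limma adjusted p = 0.893). Only animal 8 lay above the highest control for this gene. Psmb1 differed by 0.13 ± 0.16 (SE) and Psmb2 by 0.08 ± 0.12 (SE).

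The base joins the cap to the core and pulls substrates in. Of its 8 measured genes, 6 had a higher mean in case animals and 2 a lower one, with a median difference of 0.07. Psmc1, an ATPase whose tail helps to open the gate, gave 269, 194, 269 and 264 in case animals, against 165, 235, 226, 232 and 220.5 in control animals. Case animals 3, 7 and 8 were above every control, case animal 5 was below all controls but animal 4, and the difference was 0.20 ± 0.14 (SE; limma adjusted p = 0.859). The other 4 measured ATPases, Psmc2, Psmc3, Psmc4 and Psmc5, differed by between -0.03 and 0.08, and the median of the 5 ATPases was 0.06.

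Psmd1 and Psmd2 encode the scaffold proteins of the base, of which that of Psmd2 docks the shuttles that bring ubiquitinated proteins. Psmd1 gave 112, 87.9, 118 and 133 in case animals, against 82.2, 104, 96.6, 95.9 and 79.4 in control animals. Case animals 3, 7 and 8 lay above every control and animal 5 lay among them. The means were 113 ± 18.8 in case (SD, n = 4) and 91.6 ± 10.4 in control (n = 5), a difference of 0.28 ± 0.15 (SE; limma adjusted p = 0.785), the highest of the 33. Psmd2 gave 465, 376, 356 and 502 in case animals, against 327, 345, 408, 343 and 388 in control animals, a difference of 0.22 ± 0.13 (SE; limma adjusted p = 0.807). All 4 case animals exceeded the median control, but only animals 3 and 8 exceeded the highest. Psmd4, a ubiquitin receptor, gave 190.1, 161, 128 and 172 in case animals, against 217, 166, 212, 146 and 174 in control animals. It leaned the other way, by -0.16 ± 0.15 (SE; limma adjusted p = 0.902), with overlapping groups.

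The lid surrounds the enzyme that removes ubiquitin chains, Psmd14, which was not analysed here. Its 6 measured genes split evenly, 3 with a higher and 3 with a lower mean in case animals, with a median difference of -0.02, or 0.07 when each array was centred on its median. The class held both a low and a high extreme. Psmd8 gave 256, 205, 187 and 211 in case animals, against 247, 265, 273, 255 and 237 in control animals. Case animals 5, 7 and 8 lay below every control, and animal 3 lay among them. The means were 215 ± 29.1 in case (SD, n = 4) and 256 ± 14.5 in control (n = 5), a difference of -0.25 ± 0.12 (SE; limma adjusted p = 0.755; two-sided exact permutation p = 0.0397 when taken alone). The exact test runs over the 126 regroupings of the animals, and 0.00794 is the smallest p it can give.

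Psmd11, a lid subunit known as limiting for assembly of the cap in human stem cells, gave 342, 344, 445 and 374 in case animals, against 295, 328, 306, 317 and 352 in control animals. All 4 case animals lay above the median control, and animals 7 and 8 lay above the highest. The means were 376 ± 48.3 in case (SD, n = 4) and 320 ± 21.6 in control (n = 5), a difference of 0.23 ± 0.12 (SE; limma adjusted p = 0.784; exact permutation p = 0.0317 when taken alone). A dimmer probe set for Psmd11 gave 243, 252, 246 and 188 in case animals, against 199, 163, 276, 205 and 204 in control animals, a difference of 0.15 ± 0.15 (SE). Psmd7, a partner of Psmd14, differed by 0.21 ± 0.14 (SE), and Psmd3, Psmd6 and Psmd13 by between -0.10 and 0.06.

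**Figure D2:**
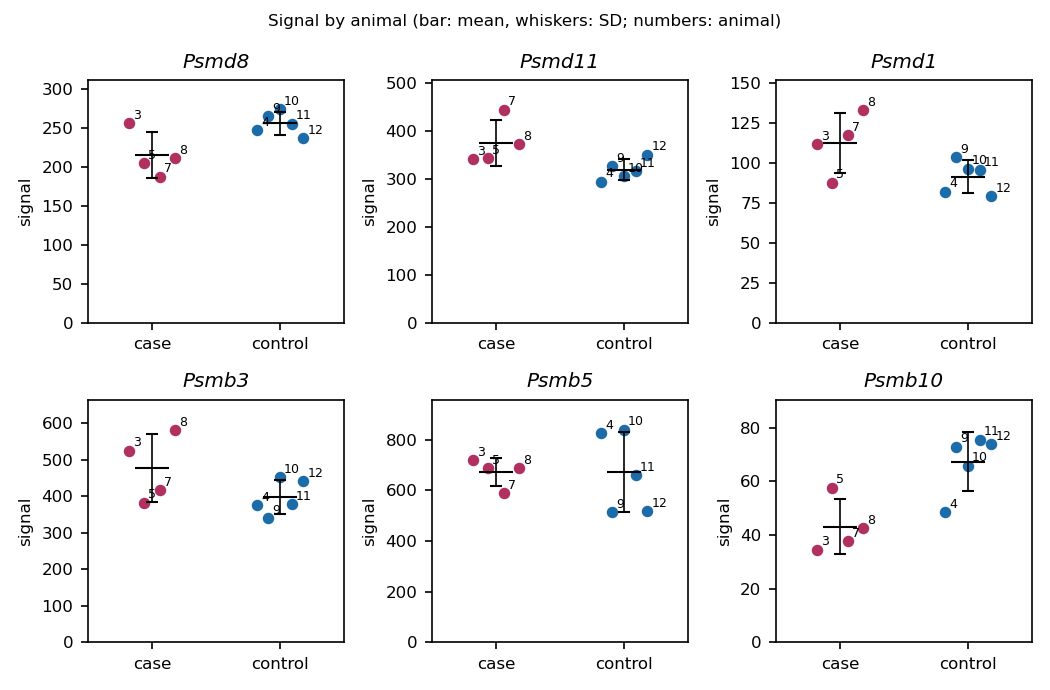
Signal on a linear axis, by animal, for Psmd8, Psmd11, Psmd1, Psmb3, Psmb5 and the immunoproteasome gene Psmb10, with case animals left and control animals right (points: animals, numbered; bar: mean; whiskers: SD). The groups overlap in every panel, and case animal 5 has the lowest case signal for Psmd1 and Psmb3 and the highest for Psmb10.

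Of the 3 activator genes measured, 1 had a higher mean in case animals and 2 a lower one, with a median of -0.02, or 0.07 when each array was centred on its median. The PA28 genes had differences close to 0. Psme1 gave 513, 452, 562 and 586 in case animals, against 553, 532, 530.4, 623 and 437 in control animals, a difference of -0.02 ± 0.13 (SE; limma adjusted p = 0.995). Psme2 gave 191, 246, 220.5 and 271 in case animals, against 236, 264, 177, 279 and 254 in control animals, a difference of -0.05 ± 0.15 (SE; limma adjusted p = 0.981). These subunits are induced by interferon gamma together with the immunoproteasome. Without a term for run, their intervals reached no lower than -0.29 for Psme1 and -0.38 for Psme2. With run as a block these bounds were -0.35 and -0.40, and with the actin ratio as a covariate -0.37 and -0.51. Without case animal 5 they were -0.23 and -0.45.

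Psme4, which encodes PA200, has 3 probe sets. The brightest gave 317, 290.5, 479 and 461 in case animals, against 310.2, 374, 268, 326 and 394 in control animals, a difference of 0.19 ± 0.17 (SE; limma adjusted p = 0.90). Case animals 7 and 8 lay above every control, and animals 3 and 5 lay among them. The second gave 225, 251, 215 and 209.8 in case animals, against 176, 189, 151, 188 and 181 in control animals. Here all 4 case animals lay above all 5 controls, and the difference was 0.34 ± 0.12 (SE; limma p = 0.0119, adjusted 0.644; exact permutation p = 0.00794, the smallest that can be reached). The third gave 153, 130.1, 168 and 146 in case animals, against 137, 125, 126, 127 and 129.5 in control animals, with a difference of 0.20 ± 0.12 (SE). In the fit without covariates the probe sets agreed in sign, and none passed the adjusted threshold. With the actin ratio as a covariate the signs differed, at -0.06 for the brightest, 0.34 for the second and 0.16 for the third. Which transcript ends the probe sets report was not analysed here.

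The chaperones that build the base are not part of the finished particle. Psmd5 gave 151, 160.3, 208 and 171 in case animals, against 165, 209, 169.9, 209 and 206 in control animals, a difference of -0.15 ± 0.13 (SE; limma adjusted p = 0.893). Psmd9 gave 90.1, 90.9, 72.1 and 72.7 in case animals, against 81.3, 83.5, 89.7, 79.2 and 87.9 in control animals, a difference of -0.05 ± 0.13 (SE). Case animals 7 and 8 were below every control for Psmd9, and animals 3 and 5 above every control. Psmd10, also called gankyrin, differed by 0.04 ± 0.14 (SE), with case signals between 137 and 144 and control signals between 112 and 173. The 2 genes that share only the name start, Psmc3ip and Psme3ip1, differed by -0.12 ± 0.15 and 0.17 ± 0.11 (SE).

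The classes were next compared as mean levels per animal, relative to the mean of the 9 animals. For all 33 genes together this was 0.00, -0.08, 0.06 and 0.13 in case animals, against -0.15, 0.04, -0.02, 0.03 and -0.01 in control animals (log2). Control animal 4 had the lowest level and case animal 8 the highest. The case minus control differences of the class means were 0.04 for the alpha genes, 0.10 for the beta genes, 0.09 for the base, 0.01 for the lid, 0.04 for the activators and -0.06 for the chaperones. Groups overlapped in every class. The base was high in case animals 3 and 8 (0.11 and 0.20) and low in control animal 4 (-0.15), while the alpha genes were high in case animal 7 (0.22) and low in control animal 4 (-0.24). Other animals went the opposite way. The base was also high in control animal 10 (0.10) and low in case animal 5 (-0.09). The alpha genes were also high in control animals 9 and 11 (0.13 and 0.125) and low in case animal 5 (-0.105). Control animal 4 gave the lowest control signal for 14 of the 33 genes, and case animal 5 the lowest case signal for 12. Case animal 7 was close to this, with the lowest case signal for 11 and the highest for 13. Without control animal 4 the median difference of the 33 was -0.001.

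**Figure D3:**
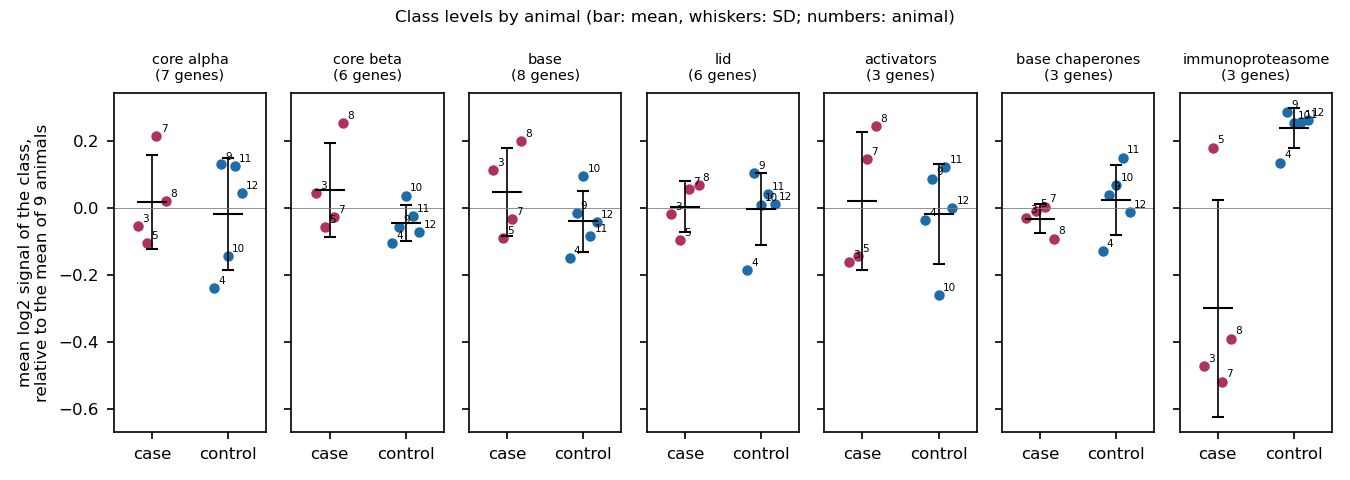
Mean log2 signal of each class by animal, relative to the mean of the 9 animals, with case left and control right in each panel (points: animals, numbered; bar: mean; whiskers: SD). The 6 constitutive classes overlap between groups, and 3 of the 4 case animals lie below all controls for the 3 immunoproteasome genes.

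**Figure D4:**
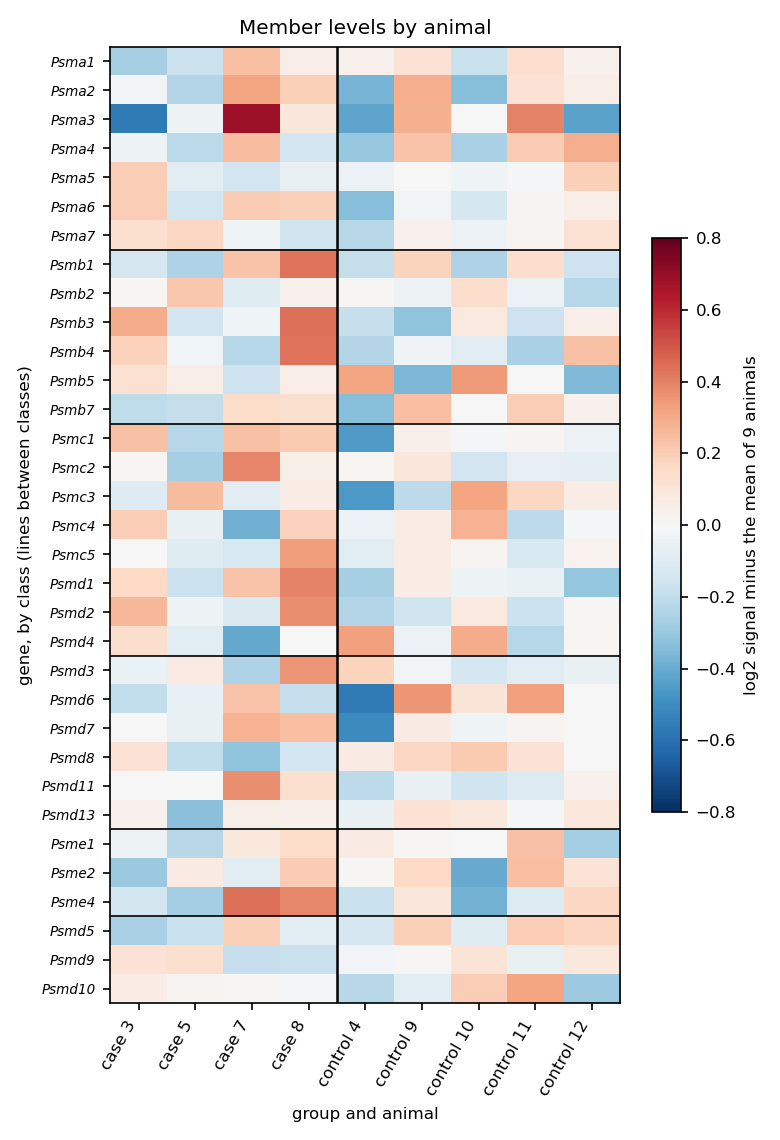
Heat map of the 33 genes (rows, by class) in 4 case and 5 control animals (columns, case left), coloured by log2 signal minus the gene's mean over the 9 animals. Control animal 4 shows low values for many genes, including 14 at the lowest control level, and no class shows a block that separates the groups.

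The fits that take account of run and RNA length moved the members in different directions. The median of the 33 was 0.07, with 24 of 33 above 0 beside 46% of all probe sets, once run was fitted as a block. In that fit 6 of 33 had unadjusted p under 0.05, all higher in case animals, beside 7.67% of all probe sets in either direction. They were Psma6 (0.33), Psmb3 (0.40), Psmb4 (0.38), Psmd1 (0.37), Psmd2 (0.37) and Psmd7 (0.40), and the smallest limma adjusted p was 0.620. The base and beta medians were then 0.20 each. Within run 1, where animal 4 is the only control, the median of the 33 was 0.19. Within run 2, where animal 8 is the only case animal, it was 0.06. Run 3 held no case animal, so the fit with run as a block rests on these 2 comparisons alone. With the actin ratio as a covariate the median was 0.0008 and 17 of 33 lay above 0, beside 46.4% of all probe sets. In that fit 0 of 33 were at an unadjusted p under 0.05. Case animal 5 had the lowest case signal for 12 members, and case animal 7 for 11. Without case animal 5, 4 of 33 were at an unadjusted p under 0.05, all higher in case animals (Psma6, Psmb3, Psmc1 and Psmd1). The share of all probe sets was 11.2% in either direction. The smallest adjusted p of a member was then 0.319, while 52 probe sets of all kinds passed.

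**Figure D5:**
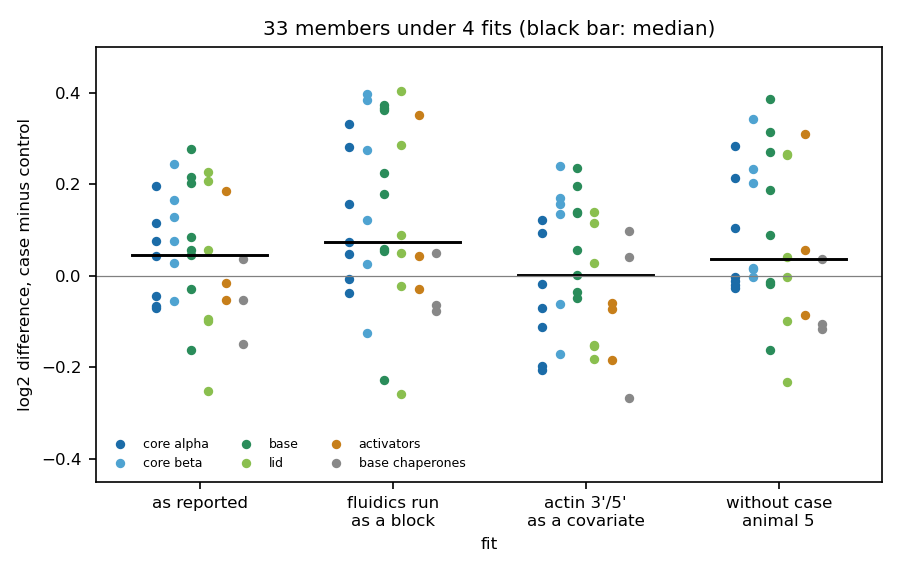
Log2 difference, case minus control, of the 33 genes in 4 fits: as reported, with fluidics run as a block, with the actin 3' to 5' ratio as a covariate, and without case animal 5 (points: genes, coloured by class; black bar: median). The medians are 0.05, 0.07, 0.0008 and 0.04.

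The immunoproteasome subunits, which replace the catalytic beta subunits, all had a lower mean in case animals, with a median difference of -0.59. Psmb8 gave 102, 99.0, 64.1 and 86.3 in case animals, against 143, 113, 116, 90.6 and 106 in control animals, a difference of -0.36 ± 0.17 (SE; limma adjusted p = 0.744, unadjusted limma p = 0.0481, exact permutation p = 0.0556). Psmb9 gave 31.6, 86.6, 42.2 and 37.1 in case animals, against 63.7, 76.1, 75.8, 85.7 and 75.3 in control animals, a difference of -0.65 ± 0.23 (SE; limma adjusted p = 0.644, unadjusted limma p = 0.0148, exact permutation p = 0.0714). Case animals 3, 7 and 8 lay below every control for Psmb9, and animal 5 lay above them all. Psmb10 gave 34.6, 57.7, 37.9 and 42.5 in case animals, against 48.6, 73.0, 65.9, 75.6 and 74.0 in control animals, a difference of -0.59 ± 0.18 (SE; limma adjusted p = 0.644, unadjusted limma p = 0.00632, exact permutation p = 0.0238). All 3 lay lower at an unadjusted p under 0.05, beside 0 of 33 constitutive genes and 3.81% of all probe sets in that direction, and none passed the adjusted threshold with all animals. These values depended on the fit. With run as a block, Psmb8 differed by -0.49 (limma adjusted p = 0.641, unadjusted 0.0436), Psmb9 by -0.67 (adjusted 0.650, unadjusted 0.0549) and Psmb10 by -0.43 (adjusted 0.676, unadjusted 0.0847). Only Psmb8 was then under an unadjusted 0.05. With the actin ratio as a covariate, Psmb8 differed by -0.24 (limma adjusted p = 0.997, unadjusted 0.190), Psmb9 by -0.55 (unadjusted 0.0555) and Psmb10 by -0.58 (unadjusted 0.0169), with the same adjusted p for all 3. Only Psmb10 was then under an unadjusted 0.05. Without case animal 5, Psmb9 differed by -0.94 ± 0.16 (SE, limma adjusted p = 0.0304), Psmb10 by -0.73 (adjusted 0.118) and Psmb8 by -0.43 (adjusted 0.394). In that fit 52 of 9519 probe sets passed. It leaves out the animal with the highest Psmb9 signal of all 9, so its p for Psmb9 cannot count as support for a difference.

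To compare an immunoproteasome subunit with the constitutive subunit it replaces in the same animal, the log2 ratio was taken for the 2 pairs that could be measured. This comparison was added after the signals had been seen. The ratio of Psmb10 to Psmb7, centred on the 9 animals, was -0.39, 0.26, -0.62 and -0.46 in case animals, against 0.19, 0.15, 0.25, 0.24 and 0.37 in control animals. Case animals 3, 7 and 8 lay below every control and animal 5 lay among them, with a difference of -0.54 (two-sided exact permutation p = 0.0397, adjusted 0.0794 over the 2 pairs). The ratio of Psmb8 to Psmb5 was -0.10, -0.07, -0.44 and -0.26 in case animals, against 0.18, 0.52, -0.13, -0.13 and 0.44 in control animals. Its difference was -0.39 (exact permutation p = 0.0873, adjusted 0.0873), with overlapping groups. Neither ratio passed after adjustment, which does not cover the choice made after the signals had been seen. Psmb7 and Psmb5 themselves differed by -0.06 and 0.03. The ratios therefore mostly repeat the Psmb10 and Psmb8 values and give no separate support for a difference.

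Markers of cell types that carry immunoproteasome are set beside this. Of 10 leukocyte markers measured, 8 had a lower mean in case animals, 6 passed the filter and 0 of those 6 were at an unadjusted p under 0.05, with a median of -0.07. Their summed signal lay between 2383 and 3475 in case animals and between 2362 and 3744 in control animals, and no marker was at 0 in every animal. That sum comes mostly from Cd74, Lyz2 and RT1-Da, which differed by -0.03, 0.04 and 0.11. It therefore says little about the dimmer markers, which differed by between -1.11 (Coro1a, below the filter) and -0.002 (Cd53). Of 15 interferon-related genes measured, 13 had a lower mean in case animals, with a median of -0.29. In the fit without a term for run, 4 of the 11 that passed the filter were lower at an unadjusted p under 0.05. The share of all probe sets in that direction was 3.81%. The 4 included Mx1, an antiviral GTPase (-0.79 ± 0.20, SE), and Cxcl10, a chemokine (-0.48 ± 0.15, SE), and 0 passed the adjusted threshold. The part of these in the immunoproteasome values was not tested. In whole kidney RNA, fewer cells of a type and less RNA per cell cannot be told apart.

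The remaining marker lists gave no call at the adjusted threshold in either direction. Thick limb and distal tubule markers had a median of 0.02 (5 measured), collecting duct markers -0.13 (5), podocyte markers -0.02 (4) and red cell markers -0.19 (2). Endothelial markers had a median of -0.25, with 3 of 5 below 0 and 2 above (Kdr at 0.19 and Pecam1 at 0.13). Of these 5, 2 were lower at an unadjusted p under 0.05 (Egfl7 and Esam). Smooth muscle and mesangial markers had a median of -0.25, with 5 of 6 below 0 and 1 above. Of the 5 that passed the filter, 2 were lower at that p (Myh11 and Rgs5). The counts at that p are from the fit without a term for run, where 3.81% of all probe sets were lower. Skeletal muscle, liver, adipose and adrenal cortex markers, whose RNA would come from neighbouring tissue, had summed signals of at most 124.1 in case animals and at most 120.2 in control animals, and medians of 0.02, 0.04, -0.15 and -0.13 in that order. The 124.1 was the adipose sum of case animal 5, mostly from Fabp4. Its signal was 105.3 there, between 5.6 and 10.9 in the other case animals, and between 3.4 and 69.7 in control animals. The part of the endothelial and smooth muscle values in the proteasome values was not tested.

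No gene listed as acting with the proteasome passed the adjusted threshold. The 5 factors that assemble the core had a median of 0.01, with 3 above 0 and 2 below, and 0 at an unadjusted p under 0.05. Pomp, the factor that brings the half-cores together, differed by 0.17 ± 0.12 (SE), and Psmg3, a pairing chaperone of the alpha ring, by -0.17 ± 0.14 (SE). Of 12 measured proteins that attach to the proteasome or deliver substrates, 9 had a higher mean in case animals and 0 were at an unadjusted p under 0.05, with a median of 0.10. Akirin2, which brings the proteasome into the nucleus, gave 52.4, 77.1, 20.8 and 30.7 in case animals, against 72.1, 52.0, 74.3, 48.3 and 61.3 in control animals (-0.53 ± 0.29, SE). Zfand5, an activator of the 26S particle, gave 161, 245, 376 and 348 in case animals, against 162, 229.8, 190.6, 231 and 269.8 in control animals (0.32 ± 0.23, SE). Of 12 measured ubiquitin and unfoldase genes, 8 had a higher mean in case animals, with a median of 0.12, and 0 of the 11 that passed the filter were at an unadjusted p under 0.05. The ubiquitin-conjugating enzymes Ube2r2 and Ube2k had the smallest p of these, at 0.24 ± 0.14 and 0.15 ± 0.12 (SE).

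Regulators of proteasome genes were compared too. Nfe2l1, the factor that raises proteasome genes when proteasome activity is low, differed by -0.01 ± 0.26 (SE), and Nfe2l2, which does so in oxidative stress, by 0.09 ± 0.16 (SE). Of the 6 measured genes in this list, 5 had a higher mean in case animals, with a median of 0.15, and 2 were higher at an unadjusted p under 0.05, beside 2.88% of all probe sets. Sqstm1, a cargo receptor of autophagy that Nfe2l2 can induce, gave 895.9, 1306, 858 and 953 in case animals, against 724, 714, 763, 802 and 867 in control animals (0.36 ± 0.13, SE; limma adjusted p = 0.644). Case animals 3, 5 and 8 lay above every control and animal 7 just below the highest. Mafk, a partner of both factors, gave 123, 118, 113 and 101.5 in case animals, against 96.7, 81.5, 89.3, 86.2 and 104 in control animals (0.30 ± 0.12, SE; limma adjusted p = 0.677).

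The promoters of the members were read for the core of the antioxidant response element, the site that Nfe2l1 and Nfe2l2 bind, and for 3 other motifs. The 250 bases before the start of each gene came from RefSeq (assembly GRCr8), which held 31 of the 33 genes but not Psma7 or Psmd6, and were searched on both strands. TGACNNNGC was found in 6 of 31, or 19.4%, against 10.1% of 33469 promoters of the same length. The stretches of 60 bases below show where, 5' to 3' along the gene, with the match in capitals, and are given because these are the members whose promoters hold the letters of that element. Psmb5 is the catalytic subunit with a difference of 0.03, Psmd1 the member with the highest difference and Psme4 the activator above.
Psma3 (chr6:95219689-95219748, + strand): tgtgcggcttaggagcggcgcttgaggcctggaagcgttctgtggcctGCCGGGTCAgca
Psmb2 (chr5:144254965-144255024, + strand): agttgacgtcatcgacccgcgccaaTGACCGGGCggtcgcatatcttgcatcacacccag
Psmb5 (chr15:32047405-32047464, - strand): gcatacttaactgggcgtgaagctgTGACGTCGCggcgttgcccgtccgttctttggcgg
Psmd1 (chr9:94157781-94157840, + strand): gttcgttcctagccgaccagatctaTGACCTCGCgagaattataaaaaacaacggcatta
Psmd9 (chr12:39018307-39018366, - strand): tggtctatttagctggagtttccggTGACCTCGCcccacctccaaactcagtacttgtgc
Psme4 (chr14:108706563-108706622, + strand): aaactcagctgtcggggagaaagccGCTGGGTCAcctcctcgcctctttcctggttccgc

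Psma3 and Psme4 carry the match on the opposite strand, so the capitals there read as its reverse complement. Psmd9 holds a second match, also on the opposite strand, farther from the start. The median difference of the 6 genes with a match was 0.08, and that of the members without was 0.05. Of the 3 immunoproteasome genes, 0 had a match. CCAAT, the CCAAT box, was found in 16 of 31 (51.6%), against 34.0% of all promoters, and in Psmb2 it overlaps the element above. GAAANNGAA, the core of the interferon-stimulated response element, was found in 6 of 31 (19.4%), against 8.12%, namely Psma4, Psmb2, Psmb3, Psmd7, Psmd11 and Psme2. TTCNNNGAA, the core of the gamma-activated site, was found in 2 of 31 (6.45%), against 7.67%. Of the 3 immunoproteasome genes, 1 held the interferon-stimulated core (Psmb10) and 1 the gamma-activated core (Psmb8).

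The letters of the interferon element are shown for Psme2, whose signal differed by -0.05, and for Psmb10, whose signal differed by -0.59, since the matched 9 bases are the same in both. Psmb10 also holds matches with other letters, 67 and 73 bases before the gene start, which are not shown. The match shown for Psme2 is its only one, so the promoters differ in this element.
Psme2 (chr15:33052770-33052829, - strand): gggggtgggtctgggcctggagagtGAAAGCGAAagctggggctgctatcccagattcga
Psmb10 (chr19:50743293-50743352, - strand): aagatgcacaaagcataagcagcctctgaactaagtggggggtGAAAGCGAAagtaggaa

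A match describes the letters only, and neither binding nor use of a site was measured.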

How the data were processed

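RNA from the kidneys of 9 rats was measured on Affymetrix arrays, type RAE230A as the file headers give it. The deposited intensity values, 1 per probe set and array, are linear and had already been scaled by the authors, since the 2% trimmed mean lay between 100.02 and 100.03 on all arrays; the software is not given in the sources used here. Of 15923 probe sets, 57 controls were left out. Symbols came from the platform annotation, and all 35 members matched RefSeq (GRCr8) by Entrez ID; 13 of them have 34 pseudogenes there, which similar probes could also detect. Each gene was represented by its probe set with the highest mean log2 value.

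Values were used as log2(signal + 5.03), the constant being 10% of the median, and probe sets above the 40th percentile of mean log2 value (signal near 33.3) were kept, leaving 9519. Case minus control was fitted in R 4.3.3 with limma 3.58.1 (lmFit, eBayes with an intensity trend, two-sided, Benjamini-Hochberg, threshold 0.05). Labels name each animal's group, and nothing pairs animals. Single values were also compared by exact permutation over 126 regroupings. Full values are given, in each class, for the 2 members with the smallest p and for Psmb5, Psmb7, Psmd4, Psmc1, Psme1, Psme2 and Psme4. The members, gene lists, named genes and tests were chosen with earlier results of these data known. Alternatives changed the pseudocount, filter, normalization, trend, weights, run, actin ratio, probe set and animals. The fit was tested on simulated data. Tables and figures used Python 3.11.15, NumPy 2.4.6, pandas 2.3.3 and matplotlib 3.10.9.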

Additional observations from a re-analysis of the deposited data

Results flagged for a closer look

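Of the 66 groups formed by 33 genes and 2 groups of animals, 6 held an animal far from the others of its group by Dixon's test on the log2 scale, where chance marks about 1 in 20. Case animal 5 was the low one for Psma6 (605.9, next 768.8), an alpha subunit of the core, for Psmc1 (194.4, next 264.4), an ATPase of the base, and for Psmd13 (84.5, next 110.6), a lid subunit. Control animal 4 was the low one for Psmc1 (165.1, next 220.5) and for Psmd7 (134.6, next 189.0), a lid subunit. Control animal 12 was the high one for Psma5 (398.7, next 347.8), an alpha subunit. Case animal 5 and control animal 4 were in fluidics run 1, and control animal 12 was alone in run 3.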

How the results depend on the processing

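The count of members past the adjusted threshold was 0 in every setting tried. Over all probe sets it was 1 with a pseudocount of 50% of the median, with no filter, and with median centring, and between 0 and 52 on leaving out 1 animal, with 52 without case animal 5. Members at an unadjusted p under 0.05 numbered 1 of 33 with no filter (Psmd8, beside 6.23% of all probe sets), 1 with quantile normalization (Psmd8, 6.12%), 2 with median centring (Psmd1 and Psmd11, 7.63%), 6 with run blocked (7.67%), 1 with the second brightest probe set (Psme4, 6.69%), and between 0 and 4 on leaving out 1 animal. At these shares, 1 or 2 of 33 is near the background. Median centring moved the median of all probe sets to 0.07 and that of the members to 0.13, a gap much like the one reported. With run blocked, the base median was 0.20. In run 1 alone the medians were 0.19 for all members, 0.31 for the alpha genes, 0.16 for the lid and -0.11 for the activators; in run 2 alone they were -0.04 for the alpha genes, 0.24 for the beta genes, 0.10 for the lid and 0.20 for the activators. The alpha and activator medians thus had opposite signs in the 2 runs. So did the chaperone median, at 0.05 in run 1 and -0.18 in run 2. The cause of these shifts was not tested. Of the 17 genes given in full, 10 kept their sign in the 20 refits run on every gene, and 9 of these also within each run (Psma6, Psmb3, Psmb4, Psmc1, Psmd1, Psmd2, Psmd4, Psmd8 and Psmd11), the exception being Psmd5, at 0.05 in run 1. The other 7 changed sign in at least 1 refit, and none of the 17 passed the adjusted threshold in any. The median of the members was between -0.001 and 0.06 on leaving out 1 animal. No paired analysis was possible because the groups share no animal or replicate numbers.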
